A study of Mus musculus with 21 samples.

Results

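EphA receptors and ephrin-A ligands are the A class of the Eph family of contact-dependent guidance molecules. The 10 genes described here are the receptor genes Epha2, Epha3, Epha4, Epha5, Epha6, Epha7 and Epha8 and the ligand genes Efna2, Efna3 and Efna5, found by symbol among the 31883 genes of the deposited table. They were compared between the subcommissural organ (SCO), a gland made of specialised ependyma that secretes into the cerebrospinal fluid, and the hippocampus of newborn C57BL/6 mice. Bulk RNA sequencing libraries of postnatal day 0 comprised 4 from SCO and 5 from hippocampus, with no treatment or genetic change named in the labels. The other 12 samples of the series, from postnatal day 60, were not analysed here. Whether each library stands for its own animal or for a pool is not said in the labels, and p-values therefore cover only the variation among these libraries, technical variation included. The members were chosen by a rule that used their measured P0 levels in SCO and hippocampus, so their tissue differences are a description and carry no p-value. The other gene lists, markers included, were also chosen with earlier results of these data known, so their p-values are no independent support.

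Eph receptors are receptor tyrosine kinases, and their ephrin ligands are bound to the membrane of the neighbouring cell. A-class ephrins are held by a lipid anchor, B-class ephrins cross the membrane, and receptors bind mostly, though not only, ligands of their own class. Signals run forward into the cell with the receptor and backward into the cell with the ligand. In the brain the A class is known for repelling growing axons, for ordering axons into maps between the retina and midbrain and between the hippocampus and septum, and for shaping dendritic spines.

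Values are normalized counts, that is, read counts of a gene divided by 1 size factor per library. The libraries held 35379988 to 64242533 reads from SCO and 36787949 to 151009954 reads from hippocampus. The SCO marker genes Sspo, Car3 and Spdef were higher in all 4 SCO libraries than in any hippocampus library (limma adjusted p = 0.000175, 0.00659 and 0.00594). Genes that rose or fell are those called higher or lower in SCO at a limma adjusted p under 0.05. Of all genes tested, 1.71% rose and 1.34% fell. Of 12 marker genes of hippocampal and cortical excitatory neurons, 10 fell and 0 rose in SCO, and 12 had a log2 fold change below 0. Their summed level was 5962 to 10379 in SCO and 123906 to 158954 in hippocampus. Of 12 marker genes of habenular, thalamic and pretectal neurons, 7 rose and 0 fell, and 12 had a log2 fold change above 0. Their summed level was 62187 to 94762 in SCO and 3355 to 5579 in hippocampus. Of 5 red blood cell genes, 4 rose and 5 had a log2 fold change above 0, with a summed level of 45492 to 79148 in SCO and 4233 to 27027 in hippocampus. Of 8 radial glia and ependyma markers, 8 had a log2 fold change above 0, 2 rose and 0 fell. Of 7 endothelium markers, 6 were above 0 and 1 below, and 0 were called. Their summed level was 12169 to 18043 in SCO and 7067 to 10716 in hippocampus. Of 6 microglia genes, 6 were above 0 and 0 were called. These summed to 20622 to 27113 in SCO and 9989 to 15474 in hippocampus. Of 7 meninges markers, 3 were above 0 and 4 below, and 0 were called. The part of these other cell types in the results below was not tested.

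Promoter sequences are shown for Epha4 and Epha6, which stood furthest below the hippocampus in SCO, and for Epha7, which stood furthest above it by log2 fold change. Each runs 5′ to 3′ on the strand of the gene, from 250 bases before the start of the gene to 50 after it, in RefSeq's GRCm38.p6. Capitals mark any match, on either strand, to the E-box CAGCTG, the homeodomain core TAATTA, the TATA box TATAAA or the GC box GGGCGG. No match overlapped another in the windows shown. Epha7 had 2 such windows, and the first is shown.
Epha4, chr1:77515039-77515338, minus strand: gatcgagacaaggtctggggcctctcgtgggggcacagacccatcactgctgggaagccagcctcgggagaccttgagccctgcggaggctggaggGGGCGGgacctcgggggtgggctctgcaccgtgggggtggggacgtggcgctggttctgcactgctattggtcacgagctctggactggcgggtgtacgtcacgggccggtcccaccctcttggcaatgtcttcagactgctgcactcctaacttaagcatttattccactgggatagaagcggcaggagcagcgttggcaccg
Epha6, chr16:60605482-60605781, minus strand: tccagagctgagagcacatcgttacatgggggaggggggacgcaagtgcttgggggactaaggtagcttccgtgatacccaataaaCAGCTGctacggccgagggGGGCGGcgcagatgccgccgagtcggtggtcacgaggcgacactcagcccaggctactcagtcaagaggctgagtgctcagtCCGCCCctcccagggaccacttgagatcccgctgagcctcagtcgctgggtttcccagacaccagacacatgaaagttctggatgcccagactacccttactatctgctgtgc
Epha7, chr4:28812881-28813180, plus strand: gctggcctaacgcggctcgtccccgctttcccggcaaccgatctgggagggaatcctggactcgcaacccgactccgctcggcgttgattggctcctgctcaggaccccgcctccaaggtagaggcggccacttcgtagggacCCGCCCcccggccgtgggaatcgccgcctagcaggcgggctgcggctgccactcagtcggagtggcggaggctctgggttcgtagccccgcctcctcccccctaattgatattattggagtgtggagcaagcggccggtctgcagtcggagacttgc
The Epha4 and Epha7 windows each held 1 GC box, and the Epha6 window held 2 GC boxes and 1 E-box. Of 32851 promoters in the RefSeq table, 35.7% held a GC box, 16.3% the E-box, 13.6% the TATA box and 5.29% the homeodomain core. The GC content of the windows was 64% for Epha4, 60.3% for Epha6 and 67% for Epha7, against a median of 52.7% over all promoters. CpG dinucleotides numbered 17 for Epha4, 15 for Epha6 and 28 for Epha7, against a median of 7. All 10 members had a promoter in the table. Among their 12 windows, the GC content ran from 54.7% for Epha2 to 84.3% for Epha8, and every one held more CpG dinucleotides than the median promoter.

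Epha4 and Epha6 were the receptors with the lowest SCO level relative to hippocampus, Epha7 was the most abundant receptor in SCO, and the ligand Efna5 overlapped between the tissues. Of the 10 members, 7 had a log2 fold change below 0 and 3 above 0, where the difference is taken as SCO minus hippocampus after adding 1 to each value. The log2 fold change was -1 or lower for 5 members, and 21.3% of all 28150 genes tested were that low. It was 1 or higher for 0 members and for 22.6% of all genes tested. SCO and hippocampus libraries were fully separated for 4 members, Epha3, Epha4, Epha6 and Epha7, against 8.53% of all genes tested. In the limma fit over all genes, 2 members, Epha4 and Epha6, were called at the threshold of 0.05, against 3.05% of all genes tested. With 1 library left out, Epha6 was called in 9 of 9 fits and Epha4 in 4 of 9, and 1 member was then called without SCO replicate 3 or without hippocampus replicate 1, 3, 4 or 5. Without SCO replicate 4, 3 members were called, Epha5 among them. The median log2 fold change was -1.14 over the 10 members and -0.04 over all genes tested. Nothing can be read from these shares, because the members were chosen with the contrast known. Bulk values cannot tell fewer cells of a type from less RNA per cell.

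**Figure D1:**
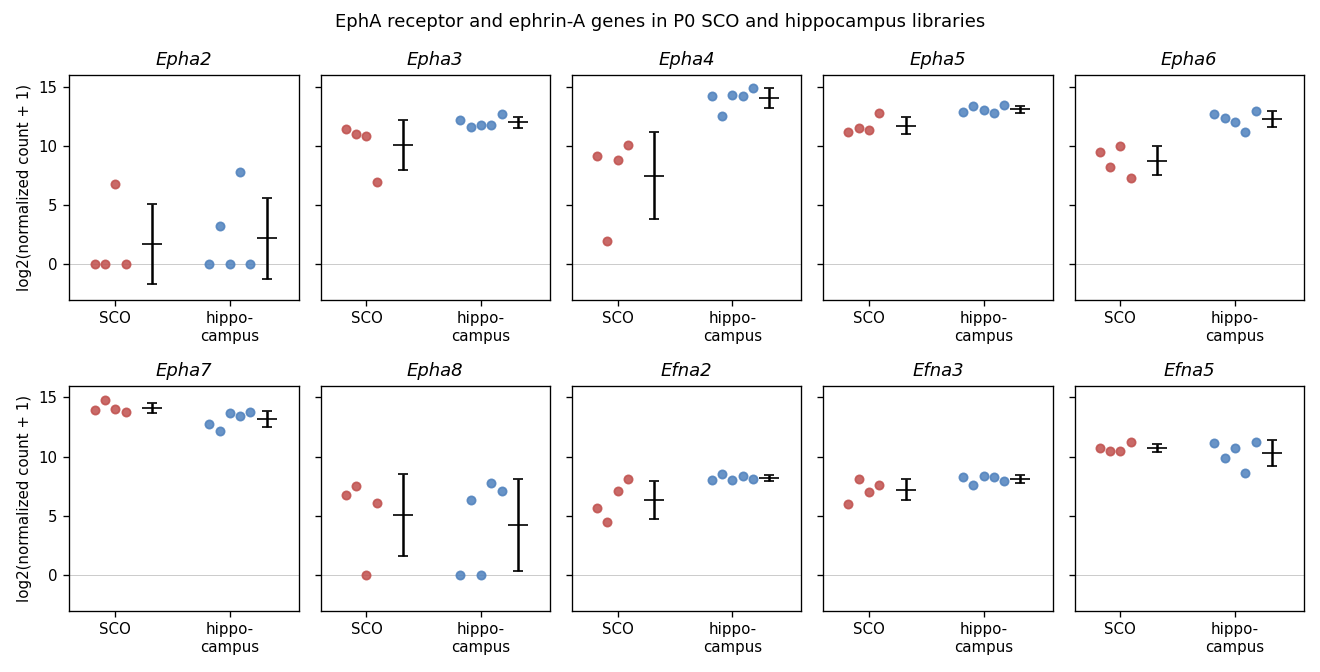
Normalized counts of the 10 members on a log2(value + 1) scale, 1 dot per library, SCO (4 libraries) left of hippocampus (5 libraries). Dashes with bars are the mean ± SD on that scale, and Epha4 and Epha6 show the widest separation, with all SCO libraries below all hippocampus libraries.

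Epha4 encodes a receptor that binds ephrins of both classes and is known in the hippocampus for spine retraction upon contact with astrocytic ephrin-A3. It spans 77367185 to 77515088 of chromosome 1, minus strand (GRCm38). Epha4 had 559.5, 2.95, 436 and 1069 normalized counts in SCO replicates 1 to 4, against 19474, 5966, 19550, 19327 and 29556 in hippocampus replicates 1 to 5. Every SCO library lay below every hippocampus library, and SCO replicate 2 stood apart from the other SCO libraries with 2 reads. The mean was 517 ± 439 in SCO (SD, n = 4) and 18775 ± 8392 in hippocampus (SD, n = 5), that is, 36.3 times as high in hippocampus. The log2 fold change was -6.54 (SE 1.40), and -4.71 without SCO replicate 2. Taken as a difference of mean log2 values, it weighs that low library more than the ratio of means does. With edgeR it was -5.205 and with DESeq2 -5.183.

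Epha6 encodes a receptor found mainly in the nervous system, and spans 59653483 to 60605531 of chromosome 16, minus strand. Epha6 had 707, 297, 1002 and 154 normalized counts in SCO replicates 1 to 4, against 6632, 5103, 4216, 2362 and 7717 in hippocampus replicates 1 to 5. The lowest hippocampus library, replicate 4, was still above the highest SCO library, replicate 3. The mean was 540 ± 387 in SCO and 5206 ± 2087 in hippocampus, and the log2 fold change was -3.50 (SE 0.57). Exons of Epha6 overlap those of the annotated antisense gene Gm9017, and no source used here states whether counting used strand, so reads of these genes cannot be told apart.

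Epha3 and Epha5 encode receptors with high affinity for ephrin-A5 that are known from axon mapping. Epha3, at 63543534 to 63864175 of chromosome 16, minus strand, had 2686, 2098, 1872 and 123 normalized counts in SCO, against 4540, 3125, 3427, 3493 and 6768 in hippocampus. SCO replicate 4 was far below the other SCO libraries, which lay closer to the hippocampus range without entering it. The mean was 1695 ± 1102 in SCO and 4271 ± 1495 in hippocampus. The log2 fold change of Epha3 was -1.94 (SE 0.80), and -0.90 without SCO replicate 4.

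Epha5, at 84054761 to 84417382 of chromosome 5, minus strand, had 2269, 2897, 2653 and 7196 normalized counts in SCO, against 7440, 10461, 8338, 7095 and 11241 in hippocampus. Here SCO replicate 4 was the high library, and it alone overlapped the hippocampus range. The mean was 3754 ± 2309 in SCO and 8915 ± 1845 in hippocampus, with a log2 fold change of -1.39 (SE 0.34). SCO replicate 4 thus held the lowest Epha3 and Epha6 of the SCO libraries and the highest Epha4 and Epha5.

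The same library differed from the other SCO libraries in marker genes too. The summed level of 8 GABAergic interneuron markers was 54174 in SCO replicate 4, against 7263, 13552 and 32852 in SCO replicates 1 to 3 and 18765 to 27856 in hippocampus. Gad1 alone made up 41842 of that sum in SCO replicate 4. Of the 8 markers, 4 fell and 0 rose in SCO, their median log2 fold change was -3.36, and Dlx1 and Dlx2 had no read in any SCO library. The summed level of 9 pan-neuronal markers was 220710 there, against 136140, 122142 and 184719, with all hippocampus libraries between 270628 and 311435. The 9 choroid plexus markers summed to 185734 in SCO replicate 4, of which Ttr made up 171311, to 9164 to 12879 in the other SCO libraries and to 312 to 14283 in hippocampus. Of the 8 choroid plexus markers that passed the filter, 8 had a log2 fold change above 0, with a median of 2.23, and 1 rose. The other marker, Kl, was below the filter in both tissues. Otx2 is in this list and in that of habenular, thalamic and pretectal neurons, so the counts of these lists are not independent. The part of these markers in the receptor values was not tested.

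Epha7 encodes a receptor with full-length and truncated forms that is known from axon topography between thalamus and cortex and from cell adhesion in the neural folds. It spans 28813131 to 28967499 of chromosome 4, plus strand. Epha7 had 15414, 27946, 16367 and 13948 normalized counts in SCO, against 6770, 4583, 13270, 11328 and 13928 in hippocampus. All SCO libraries were above all hippocampus libraries, but SCO replicate 4 exceeded hippocampus replicate 5 by a margin that is small against the spread within either tissue. The mean was 18419 ± 6429 in SCO and 9976 ± 4113 in hippocampus, 1.85 times as high in SCO. The log2 fold change was 0.95 (SE 0.36), and 0.70 without hippocampus replicate 2. Values are sums over the gene, so the truncated forms were not resolved. Hippocampus replicate 2 was the lowest hippocampus library for both Epha7 and Epha4. Its 8 radial glia and ependyma markers summed to 174238, against 106366 to 123308 in the other hippocampus libraries and 144990 to 251364 in SCO. Its 9 pan-neuronal markers summed to 290629, inside the range of the other hippocampus libraries. The part of these markers in the Epha7 value was not tested.

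Epha2 and Epha8 had no read in some libraries of both tissues and clear signal in others. Epha2, a receptor gene typical of epithelia at 141301240 to 141329384 of chromosome 4, plus strand, had 119 reads in SCO replicate 3 and 0 in the other 3 SCO libraries, against 594 reads in hippocampus replicate 4, 5 in replicate 2 and 0 in the other 3 hippocampus libraries. A count of 0 allows up to 3 reads, which is 1.14 to 4.48 normalized counts in these libraries and covers counting error only. Epha8, a receptor gene known from the superior colliculus at 136929419 to 136956816 of chromosome 4, minus strand, had 73, 127, 0 and 58 reads in SCO, against 0, 48, 0, 583 and 347 reads in hippocampus. Its normalized counts averaged 90.3 ± 78.7 in SCO and 84.9 ± 91.0 in hippocampus. For both genes the libraries of a tissue ranged from no read to over 100 normalized counts, and the log2 fold changes of -0.50 (SE 2.00) for Epha2 and 0.87 (SE 2.19) for Epha8 were smaller than their errors.

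Among the ligands, Efna5 and Efna2 encode the ephrins that form graded repellent cues in the midbrain. Efna5, at 62604184 to 62881317 of chromosome 17, minus strand, had 1670, 1465, 1414 and 2435 normalized counts in SCO, against 2288, 936, 1716, 389 and 2402 in hippocampus. The SCO range was narrower and lay almost wholly within that of the hippocampus. The mean of Efna5 was 1746 ± 472 in SCO and 1546 ± 869 in hippocampus, with a log2 fold change of 0.41 (SE 0.53), which is -0.02 without hippocampus replicate 4.

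Efna2, at 80179482 to 80190010 of chromosome 10, plus strand, had 49.2, 20.7, 133 and 283 normalized counts in SCO, against 255, 365, 259, 333 and 274 in hippocampus. Of the SCO libraries 3 were below the whole hippocampus range, and SCO replicate 4 was inside it. The mean was 122 ± 118 in SCO and 297 ± 49.1 in hippocampus. The log2 fold change of Efna2 was -1.88 (SE 0.78), and without SCO replicate 2 it was -1.25.

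Efna3, the ephrin of hippocampal astrocytes that binds EphA4 on dendritic spines, spans 89313899 to 89322965 of chromosome 3, minus strand. Efna3 had 64.2, 269, 131 and 194 normalized counts in SCO, against 316, 191, 323, 305 and 245 in hippocampus. The ranges overlapped, with 2 SCO libraries inside the hippocampus range. The mean was 165 ± 87.3 in SCO and 276 ± 56.4 in hippocampus, with a log2 fold change of -0.90 (SE 0.59). Exons of Efna3 overlap those of the annotated antisense gene Gm15998, whose reads cannot be told from those of Efna3 without a stated strand setting.

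Levels of different genes were compared per kilobase of merged exons, over all 9 EphA receptor genes and all 5 ephrin-A genes of the table. In SCO, Epha7 led with 1864 ± 650 normalized counts per kilobase and was the highest receptor gene in 4 of 4 libraries. Epha5 (224 ± 138), Epha3 (195 ± 127), Epha10 (108 ± 69.5), Epha6 (102 ± 73.1) and Epha4 (64.2 ± 54.5) followed, and each overlapped its neighbours in this order. Epha5 and Epha4, at the ends of this run, did not overlap. The gap between Epha7 and the next gene exceeded the spread, since the lowest library of Epha7 held 1411 and the highest of Epha5 held 430.

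In hippocampus, Epha4 led with 2331 ± 1042 normalized counts per kilobase and was the highest receptor gene in 4 of 5 libraries. Hippocampus replicate 2 was the exception, with 965 for Epha6 and 741 for Epha4. With the longest transcript as gene length, Epha5 led in that library with 1428, against 1298 for Epha6. The Epha5 level was then 512 ± 315 in SCO and 1217 ± 252 in hippocampus, and Epha7 in SCO and Epha4 in hippocampus kept the highest mean. Per kilobase of merged exons, Epha7 (1009 ± 416), Epha6 (984 ± 395), Epha5 (533 ± 110) and Epha3 (491 ± 172) came next after Epha4. From Epha4 to Epha3, each gene's range over libraries overlapped that of its neighbour in this order. Epha8, Epha10, Epha2 and Epha1 were each below 50 normalized counts per kilobase of merged exons in every hippocampus library. With the longest transcript as gene length, Epha2 reached 55.5 and Epha10 53.0 in their highest hippocampus library.

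As a share of the summed EphA level per kilobase, Epha7 made up 68.3%, 82.2%, 70.0% and 63.0% in SCO replicates 1 to 4, against 12.8%, 14.5%, 24.6%, 23.3% and 17.5% in hippocampus replicates 1 to 5. Epha4 made up 3.04%, 0.0107%, 2.28% and 5.93% in SCO, against 45.3%, 23.2%, 44.5%, 48.9% and 45.6% in hippocampus. The receptor mix was thus led by different genes, with no overlap of these shares between the tissues. Epha6 took 4.20% ± 3.28 in SCO and 19.1% ± 8.14 in hippocampus. The summed EphA level itself was 2582 ± 575 normalized counts per kilobase in SCO and 5389 ± 1744 in hippocampus, and SCO replicate 2 (3441) exceeded hippocampus replicate 2 (3188).

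The shares of all 5 ephrin-A genes overlapped between the tissues. Efna1, whose product is known from endothelial cells, led in both tissues with 49.3% ± 14.6 of the summed ephrin-A level per kilobase in SCO and 44.4% ± 8.71 in hippocampus. Efna1 was the highest ligand gene in 2 of 4 SCO libraries, with Efna5 the highest in the other 2, and in 5 of 5 hippocampus libraries. With the longest transcript as gene length, Efna1 was the highest in 4 of 4 SCO and 5 of 5 hippocampus libraries. Efna5 was next with 31.9% ± 6.46 in SCO and 26.1% ± 12.3 in hippocampus. Efna2 took 3.88% ± 3.39 in SCO and 10.4% ± 3.24 in hippocampus. The summed ephrin-A level was 1374 ± 312 normalized counts per kilobase in SCO and 1391 ± 248 in hippocampus.

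**Figure D2:**
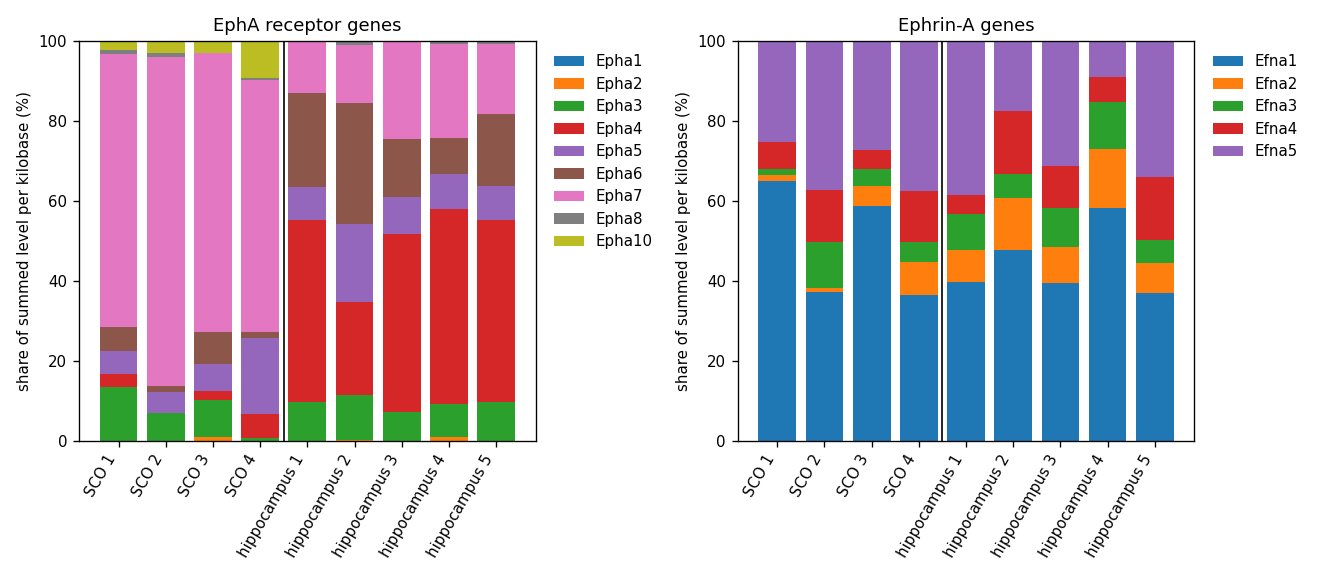
Share of each gene in the summed level per kilobase of merged exons, in percent, for the 9 EphA receptor genes (left) and the 5 ephrin-A genes (right), 1 stacked bar per library with SCO left of the line and hippocampus right of it. Epha7 fills 63.0% to 82.2% of each SCO bar and 12.8% to 24.6% of each hippocampus bar, and Efna1 is the tallest ligand segment in 2 of 4 SCO bars (4 of 4 SCO libraries with the longest transcript as gene length) and 5 of 5 hippocampus bars.

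The A-class genes outside the members were tested in the fit over all genes. Of these 4, 0 passed an adjusted p of 0.05 in limma, against 3.05% of all genes tested. An unadjusted limma p under 0.05 was reached by 1, against 4354 of all 28150 genes tested. With edgeR 0 were called, against 503 of all genes, and with DESeq2 1, Epha10, against 2706. With so few genes, nothing can be read from these counts. Epha10, a receptor gene whose kinase domain is thought to be inactive, had 370, 741, 509 and 1493 normalized counts in SCO, against 92.4, 104, 4.13, 3.66 and 247 in hippocampus. The tissues did not overlap, as for 8.53% of all genes tested. The log2 fold change of Epha10 was 4.24 with an SE of 1.28, at an adjusted p of 0.114 in limma, 0.0308 in DESeq2 and 0.232 in edgeR. Exons of Epha10 overlap those of the antisense gene 1700125G02Rik.

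Efna1 averaged 1264 ± 536 normalized counts in the SCO libraries and 1101 ± 78.3 in hippocampus (log2 difference 0.10 with SE 0.36 and adjusted p = 0.913 in limma). Efna4 averaged 202 ± 95.4 in SCO and 244 ± 143 in hippocampus (log2 difference -0.18 with SE 0.66 and adjusted p = 0.911 in limma). Exons of Efna4 overlap those of the antisense gene 4731419I09Rik. Epha1 had 1 read in the 4 SCO libraries and 4 reads in the 5 hippocampus libraries together, too few for a comparison.

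B-class genes whose products cross the classes were also read from that fit: Ephb2, a receptor for ephrin-A5, and the ephrin-B genes, whose products bind EphA4. Of these 4, 1 rose, against 1.71% of all genes tested that rose, and 0 fell. They too were listed with earlier results of these data known, so nothing can be read from that share. The gene that rose was Efnb3, whose product is known as a midline barrier in the spinal cord to axons that carry EphA4. Efnb3 had 2333, 6872, 5528 and 2235 normalized counts in SCO, against 602, 1205, 985, 970 and 546 in hippocampus. All SCO libraries were above all hippocampus libraries (log2 difference 2.19 with SE 0.44 and adjusted p = 0.0245 in limma), but the call was lost in 4 of 9 fits that left out 1 library, with an adjusted p of 0.0685 without SCO replicate 2, 0.0741 without SCO replicate 3, 0.0615 without hippocampus replicate 1 and 0.0524 without hippocampus replicate 3.

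The other 3 did not pass the test. Ephb2 averaged 637 ± 373 normalized counts in the SCO libraries and 1294 ± 292 in hippocampus (log2 difference -1.43 with SE 0.66 and adjusted p = 0.335 in limma). Its tissue ranges did not overlap, as for 8.53% of all genes tested. Efnb1 averaged 472 ± 383 in SCO and 241 ± 97.0 in hippocampus (log2 difference 0.77 with SE 0.59 and adjusted p = 0.593 in limma). Efnb2 averaged 223 ± 175 in SCO and 719 ± 541 in hippocampus (log2 difference -2.40 with SE 1.24 and adjusted p = 0.395 in limma).

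**Figure D3:**
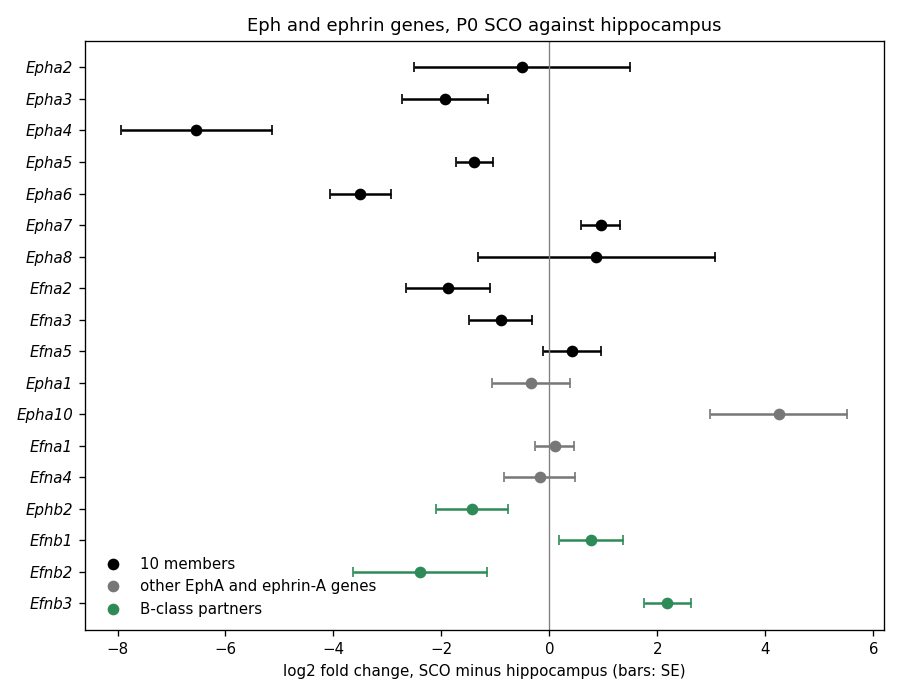
Log2 fold change (SCO minus hippocampus, 1 added to each value) with its SE as bars, for the 10 members (black), the other 4 EphA and ephrin-A genes (grey) and the 4 B-class partners (green). Epha4 lies furthest to the left at -6.54 and Epha10 furthest to the right at 4.24.

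Of 47 genes for effectors, regulators, proteases and co-receptors of Eph signalling, 1 rose and 4 fell in SCO, against 1.71% and 1.34% of all genes tested. This list was chosen with earlier results of these data known. The shares and p-values describe its genes and are no independent support. The median log2 fold change was -0.27 over the 47 genes. The gene that rose was Ntrk2, which encodes the BDNF receptor TrkB, a partner of ephrin-A in retinal axons. Ntrk2 had 10481, 10974, 16482 and 13796 normalized counts in SCO, against 3967, 3353, 5591, 4815 and 5213 in hippocampus. Every SCO library was above every hippocampus library (log2 difference 1.5 with SE 0.23 and adjusted p = 0.00687 in limma).

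The genes that fell were Kalrn, Fgfr1, Itsn1 and Anks1b. Kalrn encodes kalirin, a signalling protein of dendritic spines, and had 1422, 1636, 720 and 1044 normalized counts in SCO, against 5276, 5748, 6357, 4899 and 7330 in hippocampus. Its tissue ranges were far apart (log2 difference -2.35 with SE 0.29 and adjusted p = 0.00203 in limma). Fgfr1, a fibroblast growth factor receptor gene whose product associates with EphA4, had 1067 ± 249 in SCO and 3037 ± 630 in hippocampus (log2 difference -1.52 with SE 0.29 and adjusted p = 0.0186 in limma).

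Itsn1 encodes intersectin, an exchange factor for Cdc42 that works with EphB2, and averaged 2083 ± 434 normalized counts in the SCO libraries and 5715 ± 1167 in hippocampus (log2 difference -1.45 with SE 0.26 and adjusted p = 0.0137 in limma). Anks1b encodes a neuronal adaptor related to Anks1, an adaptor of Eph receptors, and had 7486 ± 2226 in SCO and 16559 ± 2807 in hippocampus (log2 difference -1.18 with SE 0.24 and adjusted p = 0.0287 in limma). The tissues did not overlap for any of these genes. The Anks1b call was lost in 5 of 9 fits that left out 1 library (SCO replicate 1 or 3, or hippocampus replicate 1, 3 or 5), with adjusted p values up to 0.0789, and that of Fgfr1 without hippocampus replicate 3 (adjusted p = 0.0502). All 9 pan-neuronal markers had a log2 fold change below 0, with a median of -0.74, and 2 were called lower and 0 higher. Their summed level was 122142 to 220710 in SCO and 270628 to 311435 in hippocampus. Their part in these results was not tested.

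**Figure D4:**
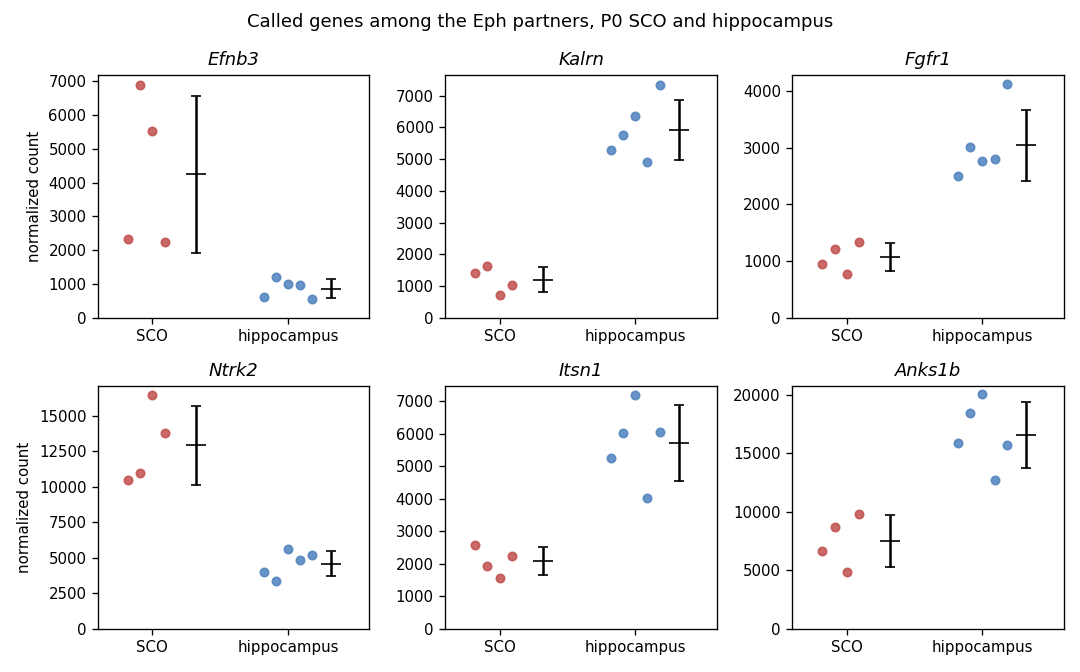
Normalized counts of the 6 called genes among the B-class and signalling partners, 1 dot per library on a linear axis from 0, SCO left of hippocampus, with the mean ± SD beside the dots. Efnb3 and Ntrk2 are higher in all 4 SCO libraries than in any hippocampus library, and Kalrn, Fgfr1, Itsn1 and Anks1b are lower.

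Genes outside the Eph family with the most similar profile were sought for the members at both ends of the fold change range. Likeness was the root mean square difference between log2(value + 1) profiles over the 9 libraries, each centred on its own mean, among 14902 genes. Nearest to Epha7 were Sec23b, a coat component of vesicles that leave the endoplasmic reticulum, at 0.26, Pdia4, a protein disulfide isomerase gene, at 0.27 and Snd1, a nuclease and transcription coactivator gene, at 0.27. Pdia4 had 12940, 20574, 17065 and 11905 normalized counts in SCO, against 6417, 3368, 7527, 6726 and 9988 in hippocampus. As with Epha7, its highest SCO library was replicate 2 and its lowest hippocampus library replicate 2, a likeness by which it was chosen.

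Nearest to Epha4 were Lzts1, a leucine zipper gene, at 1.03, Gpr22, an orphan receptor gene, at 1.28 and Pcdh20, a protocadherin gene, at 1.37. Each had 0 reads in SCO replicate 2, the library in which Epha4 had 2 reads. Gpr22 averaged 577 ± 612 normalized counts in the SCO libraries and 4213 ± 587 in hippocampus. The neighbours of Epha4 were thus less close on this measure than those of Epha7, and all of these profiles contain the tissue difference itself. Likeness was sought over these same libraries, so a shared low library such as SCO replicate 2 follows from the choice and is no separate result.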

How the data were processed

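Bulk RNA was measured in P0 SCO and hippocampus. Per the labels' protocols, the RNeasy Micro Kit served for RNA and a TruePrep kit for libraries. FastQC, HISAT, HISAT2, featureCounts, DESeq2 and the build GRCm38 are named, per the submitters' processing notes. Tool versions, annotation and strand setting are not stated in any source used here. The authors deposited a normalized signal, read counts divided by 1 size factor per library. Their own columns, the deposited log2 fold change, a score and p-values, per the file headers, were not used.

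Every value is a whole multiple of 1 read, so whole reads were recovered for 100% of values (tolerance 1e-06); edgeR called 503 genes on them. Tissues were compared by limma-trend, on log2 values after adding a pseudocount of 1. Genes averaging under 1 in both tissues were left out, which kept 28150, with Benjamini-Hochberg adjustment over all of them and a threshold of 0.05. Adding the pseudocount shrinks the change of low genes. A mean of log2 values also gives a library near 0 more weight than a ratio of means does, which can enlarge a change. The 1 size factor per library scales all genes alike. All 10 members passed the filter. Members and lists were chosen with earlier results of these data known. Named genes were the members, the other A-class genes, the B-class partners, the called signalling partners (at most 12), and the 3 nearest profiles of the members at both ends, among genes averaging 50 or more in the higher tissue, predicted genes and pseudogenes left out. Gene lengths and positions came from GENCODE M21 (31302 of 31883 identifiers matched), promoters from RefSeq. The fit was run on simulated counts with the same dispersion for all genes, which does not test the calls at the differing spreads of these genes. Versions were Python 3.11.15, matplotlib 3.10.9, R 4.3.3, DESeq2 1.42.0, edgeR 4.0.16 and limma 3.58.1. Alternatives changed the pseudocount, filter, scaling, test, replicates and pairing.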

Additional observations from a re-analysis of the deposited data

Results flagged for a closer look

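In 46 groups of libraries (23 genes, 2 tissues), 6 had a single library far from the others by Dixon's criterion. Chance gives about 1 in 20 for normally distributed values, which counts at or near 0 are not. Where all other libraries of a tissue hold 0, any read meets the criterion, as for Epha2 and Epha1 in SCO. The number flagged is therefore no sign of an excess of outliers. Among the members, Epha2 reached 109 normalized counts in SCO replicate 3 with the other SCO libraries at 0. Epha2 also reached 217 in hippocampus replicate 4, where the next library held 8.25. Epha5 was at 7196 in SCO replicate 4, with the next SCO library at 2897. Outside the members, Efnb1 was at 1043 in SCO replicate 1, with the next SCO library at 329. Epha1 was at 1.12 in SCO replicate 4 and at 4.95 in hippocampus replicate 2, which are 1 and 3 reads.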

How the results depend on the processing

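The log2 fold changes of the 10 members moved by less than the pooled SD between replicates under all 18 alternatives. For most alternatives no other outcome was possible. Leaving out libraries or blocking by replicate number cannot shift a difference beyond that SD, and the filters leave it unchanged. This outcome is therefore no sign of stability, and Epha4 ran from -7.77 to -4.71 among the alternatives. The number of members at -1 or lower stayed within 1.5 times of 5. The sign changed among alternatives for Epha2 (-2.20 to 0.89), Epha8 (-0.19 to 2.57) and Efna5 (-0.02 to 0.64). The Epha7 share of the EphA level was 67.8% in SCO and 18.8% in hippocampus with the longest transcript as gene length. The count of called genes was 859, against 503 with edgeR, 2706 with DESeq2 and 498 to 1077 with 1 library left out. The number of members called was 2, against 1 with no filter and 1 to 3 with 1 library left out. DESeq2 called 1 of the other A-class genes and 10 of the signalling partners. With 1 library left out, 0 to 1 B-class partner and 3 to 6 signalling partners were called. For the counts that moved, the cause was not tested. Replicate numbers are shared between the tissues, but deviations of same-numbered libraries correlated at -0.03 to 0.02 over genes. This gave no sign of pairing by these numbers, but it cannot exclude that libraries of both tissues came from the same animal. The labels also hold other library numbers, which were not compared. With the number as a replicate block, which leaves few residual degrees of freedom, 1 gene, 0 members, 0 B-class and 0 signalling partners were called. Where Epha2 or Epha8 had 0 reads, a level of up to 3 reads could not be detected at this depth.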
